A study of Mus musculus with 18 samples.

Results

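The study's 2 surgical controls were compared with each other: dorsal root ganglia from mice after a sham operation in the presence of saline (Sham_Saline) and ganglia from mice after laminectomy (LAM). The samples were taken by the group names in the labels, which gave 3 samples of each control, 6 of the 18 samples in all, and all 15730 genes of the count table were compared. Laminectomy, the removal of the bone over the spinal cord, is the control operation for the dorsal column injury (DCA), and the sham operation is that for the sciatic nerve injury (SNA_Saline). All 6 groups were C57BL/6 mice 6 to 8 weeks old, whose sciatic ganglia were collected 24 h after the operation and pooled from 2 mice for each sample. The other groups are a sham operation with 13 mM H2O2 (Sham_H2O2) and sciatic nerve injury with 30 mM N-acetyl-cysteine (SNA_NAC). The labels name no agent for LAM and do not say whether its mice received saline, so a difference in saline cannot be told apart from one in the operation, and they do not say how the sham operation exposed the nerve. Ganglia of unoperated mice were not analysed here, so a rise in one control cannot be told from a fall in the other. Nothing in the labels says how animals were assigned to the samples beyond the pools of 2. The p-values thus measure the spread between samples, estimated over all 18 and not over the 6 control samples alone.

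Dorsal root ganglia hold the cell bodies of sensory neurons, together with satellite glia, Schwann cells, macrophages and vessels. One axon branch of each neuron runs in the peripheral nerve and another enters the spinal cord. Injury of the peripheral branch is known to start a transcriptional programme in the cell body, of which the transcription factor Atf3 is the best known marker, whereas injury of the central branch starts it weakly or not at all. Serum amyloid A proteins are acute phase proteins, made in liver and at other sites under the inflammatory cytokines released by tissue damage.

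The stretches upstream of 3 genes on which the results below turn are shown because ATF/CREB and C/EBP factors are known to act on such genes, including Atf3 on itself. The set of RefSeq sequences used here (GRCm38.p6), which need not hold every RefSeq gene, held 8 of the 11 genes that differed between the controls. Each stretch is the 250 bases before the start that RefSeq annotates for the gene's transcript, which can lie inside the longer span that GENCODE gives the gene, as it does for Atf3 and, in part, for Saa3. It is printed 5' to 3' on the gene's strand, in lower case, with the motif matches in capitals. The letters searched on both strands were TNACGTCA (ATF/CRE) and TTNNGCAA (C/EBP), and no match of one overlapped a match of the other in the stretches shown.
Atf3 at chr1:191183334-191183583, minus strand: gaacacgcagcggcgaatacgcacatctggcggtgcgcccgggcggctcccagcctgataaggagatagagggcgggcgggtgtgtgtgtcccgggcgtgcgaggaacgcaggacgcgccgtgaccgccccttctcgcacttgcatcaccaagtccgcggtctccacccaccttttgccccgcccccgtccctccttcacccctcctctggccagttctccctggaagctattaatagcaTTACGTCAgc
Saa3 at chr7:46715677-46715926, minus strand: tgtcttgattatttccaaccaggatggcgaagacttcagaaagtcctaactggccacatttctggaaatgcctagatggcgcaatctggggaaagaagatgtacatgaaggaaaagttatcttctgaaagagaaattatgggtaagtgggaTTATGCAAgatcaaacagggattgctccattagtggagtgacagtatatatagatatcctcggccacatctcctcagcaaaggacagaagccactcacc
Saa1 at chr7:46742981-46743230, minus strand: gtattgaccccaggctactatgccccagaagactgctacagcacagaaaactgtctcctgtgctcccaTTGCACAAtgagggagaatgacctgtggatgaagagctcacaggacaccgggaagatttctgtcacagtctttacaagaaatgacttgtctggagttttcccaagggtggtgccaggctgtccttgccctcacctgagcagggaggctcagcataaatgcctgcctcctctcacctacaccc
The Atf3 stretch held 1 ATF/CRE match, TTACGTCA, whose first base lies 10 bases before the start. The 2 serum amyloid genes each held 1 C/EBP match, TTATGCAA in Saa3 at 99 bases before the start and TTGCACAA in Saa1 at 182 bases. Such a match was not particular to them: 4 of the 9 stretches of the 8 genes held one, among them Fgf3 and 1 of the 2 of Spp1. Of all 32851 stretches of the same length in that set, 2.52% held an ATF/CRE match and 9.56% a C/EBP match, so the second is common. Neither match shows a bound site.

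Counts in the 6 libraries summed to 9843129, 18539554 and 29572853 in LAM and 20652054, 23604010 and 14285706 in Sham_Saline. Values are CPM (counts scaled to a common library size) after TMM normalization, and fold changes are log2 values of Sham_Saline over LAM. The Sham_Saline libraries were less alike than the LAM libraries: the median over genes of the SD of log2 CPM was 0.295 in Sham_Saline and 0.120 in LAM. The slope of log2 CPM on the GC share of a gene's transcript was -0.044, 0.431 and 0.163 per SD in Sham_Saline 1, 2 and 3 and -0.188, -0.055 and -0.081 in LAM, so Sham_Saline 2 stood apart with high counts of GC-rich genes. The first principal component of these 6 libraries held 56.1% of their variance, and its loadings had a correlation of 0.758 with GC share across genes, which are not independent replicates. All 28 sensory neuron markers were among the genes tested, and Nefl, the light neurofilament chain, stood at 5437, 5278 and 5500 CPM in LAM and 4572, 5655 and 4736 CPM in Sham_Saline.

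**Figure D1:**
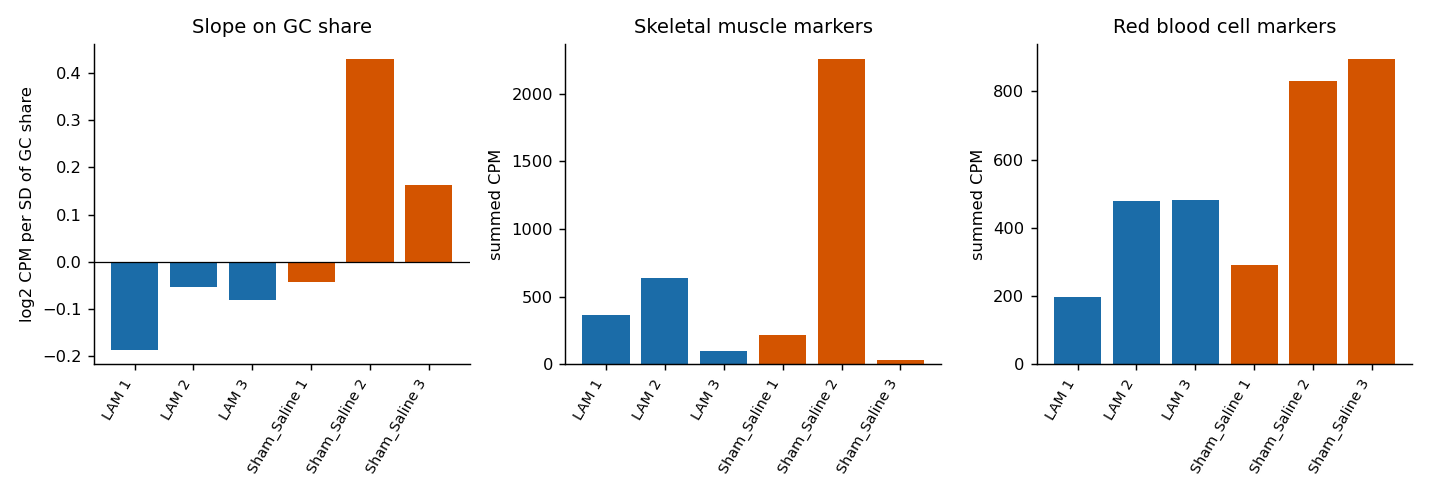
Slope of log2 CPM on GC share (left), summed CPM of the 26 skeletal muscle markers tested (middle) and summed CPM of the 9 red blood cell markers tested (right) in each LAM (blue) and Sham_Saline (orange) library. Sham_Saline 2 has the highest slope and the highest muscle sum of the 6.

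Between the 2 controls, 11 genes differed (edgeR quasi-likelihood test, adjusted p under 0.05), 8 higher (0.0509% of the genes tested) and 3 lower (0.0191%) in Sham_Saline. The higher genes were Atf3, Gpr151, Fgf3, Tmem88b, Igfbp3, Smim3, Kcnk12 and Gm5152, and the lower genes were Saa3, Saa1 and Spp1. These 11 are 0.0699% of the genes tested, and all 11 had groups that did not overlap, as had 4806 of all genes (30.6%). Before adjustment, 4765 genes (30.3%) had a p under 0.05. With the lane as a block, 6 genes passed, 4 higher and 2 lower (Atf3, Gpr151, Fgf3, Tmem88b, Saa3 and Spp1), and without Sham_Saline 1, the library with the lowest voom quality weight of the 6 (0.120), 5009 genes passed. DESeq2 passed 1141 genes, 9 of the 11 among them, and gave no adjusted p for Saa3 and Kcnk12. None of the 11 changed direction under any alternative that gave it an adjusted p.

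**Figure D2:**
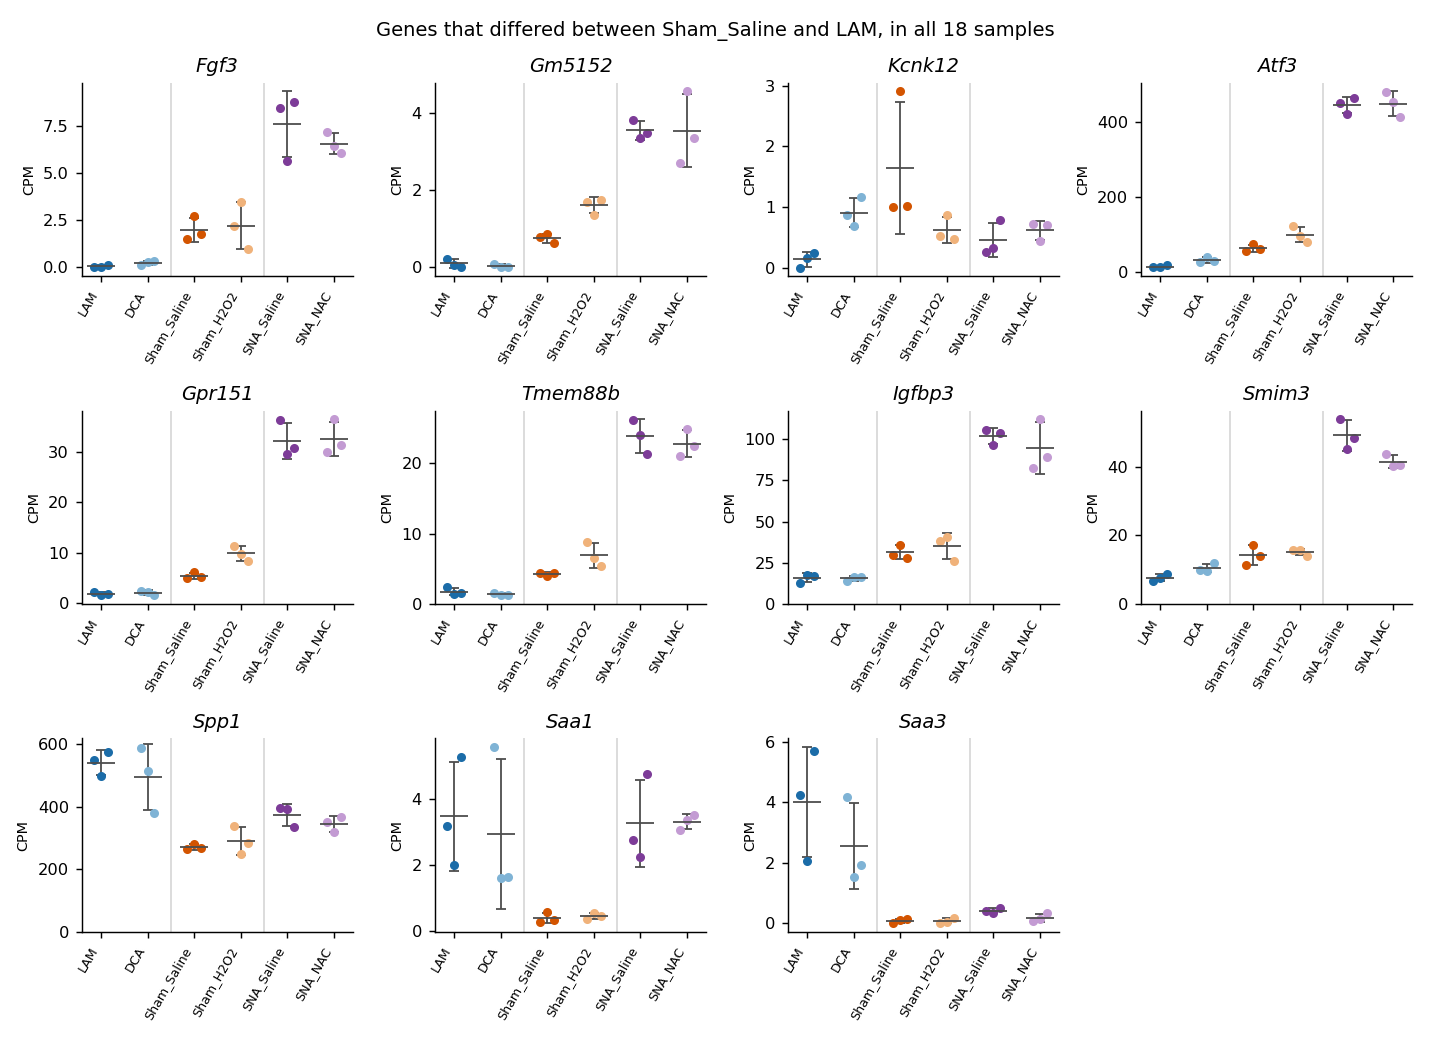
CPM of the 11 genes that differed between Sham_Saline and LAM, in all 18 samples (points), with the mean and SD of each group (n = 3). In 7 of the 8 genes that are higher in Sham_Saline, every sample with sciatic nerve injury lies above every Sham_Saline sample, the exception being Kcnk12.

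Atf3 (ENSMUSG00000026628, chromosome 1, 191170296 to 191218039 in mm10, minus strand) had the smallest p. It stood at 12.2, 12.4 and 16.9 CPM in LAM and at 55.9, 72.6 and 59.4 CPM in Sham_Saline. The lowest Sham_Saline sample was above the highest LAM sample by a wide margin, and Atf3 was 4.49-fold higher in Sham_Saline (log2 fold change 2.17, SE 0.19, adjusted p = 4.09e-05). It was the gene that passed in all 19 alternatives run on it, including the fit of these 6 libraries alone, where no other gene passed. Its group means over the series were 13.8 ± 2.64 CPM in LAM, 30.9 ± 7.69 in DCA, 62.6 ± 8.81 in Sham_Saline, 98.8 ± 20.7 in Sham_H2O2, 444 ± 21.5 in SNA_Saline and 447 ± 33.0 in SNA_NAC (SD, n = 3). Thus the sham level lay between those after the spinal operations and those after nerve injury, nearer to the former on the CPM scale. In whole ganglia, more cells of a type and more RNA per cell cannot be told apart.

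Gpr151, an orphan G protein-coupled receptor known as an injury gene of sensory neurons, stood at 2.17, 1.57 and 1.95 CPM in LAM and 5.05, 6.15 and 5.23 CPM in Sham_Saline. The groups were well separated at this low level, and the gene was higher in Sham_Saline by a log2 fold change of 1.55 (SE 0.19, edgeR adjusted p = 0.00148). Its call was lost in 2 of 19 alternatives. Fgf3 encodes a secreted fibroblast growth factor. It had 0, 0 and 3 counts in LAM and 31, 64 and 26 counts in Sham_Saline, which is 1.48, 2.70 and 1.76 CPM. The ratio of the summed counts, after scaling, was 39.3 (95% interval 13.1 to 193, Clopper-Pearson, counting error only), and the fitted difference had an adjusted p of 0.00175 in edgeR. Fgf3 was thus at or near 0 in every LAM library and counted in every Sham_Saline library. Its call was lost in 4 of 18 alternatives.

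Igfbp3 encodes a secreted binding protein of insulin-like growth factors. It stood at 12.8, 17.9 and 17.2 CPM in LAM and 30.1, 36.1 and 28.0 CPM in Sham_Saline, so that all 3 sham samples were higher (1.95-fold, log2 fold change 0.96, SE 0.17, edgeR adjusted p = 0.0487). Its adjusted p lay just under the threshold, and 13 of 19 alternatives put it above, the lane block included. Among the membrane proteins, Tmem88b stood at 2.38, 1.41 and 1.58 CPM in LAM and 4.38, 3.96 and 4.48 CPM in Sham_Saline (log2 fold change 1.31, SE 0.20, edgeR adjusted p = 0.0148). Smim3, a small membrane protein, stood at 6.83, 7.53 and 8.80 CPM in LAM and 11.5, 17.4 and 14.0 CPM in Sham_Saline (log2 fold change 0.87, SE 0.15, edgeR adjusted p = 0.0438). Neither group overlapped the other in either gene. Tmem88b lost its call in 7 of 19 alternatives, though not with the lane block, and Smim3 in 13 of 19, the lane block included.

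Kcnk12, a member of the family of potassium channels with paired pore domains, was near 0 in LAM and had 1 sham sample well above the other 2. It had 0, 3 and 7 counts in LAM and 21, 69 and 15 counts in Sham_Saline, or 1.00, 2.91 and 1.02 CPM in the latter. The ratio of the summed counts was 10.2 (95% interval 5.34 to 21.9, counting error only; edgeR adjusted p = 0.0438), and Sham_Saline 2, the library with the steepest GC slope, was the highest of all 18 samples. The call was lost in 9 of 16 alternatives, among them those without that library and with the lane block. Gm5152, a predicted gene, had 2, 1 and 0 counts in LAM and 16, 20 and 9 counts in Sham_Saline. Its ratio of summed counts was 14.6 (95% interval 4.69 to 73.5, counting error only; edgeR adjusted p = 0.0438). Gm5152 lost its call in 8 of 18 alternatives, the lane block included.

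The 3 genes that were lower in Sham_Saline, and so higher after laminectomy, include both serum amyloid genes printed above. Saa3 stood at 4.24, 2.06 and 5.67 CPM in LAM and 0, 0.084 and 0.14 CPM in Sham_Saline, or 248 counts against 4. The ratio of summed counts was 63.7 in favour of LAM (95% interval 24.6 to 236, counting error only), and the fitted log2 fold change was -5.76 (SE 0.68, edgeR adjusted p = 0.00148). Saa1 stood at 3.21, 2.01 and 5.27 CPM in LAM and 0.29, 0.59 and 0.34 CPM in Sham_Saline (log2 fold change -3.08, SE 0.53, edgeR adjusted p = 0.0438). The 2 genes held the same order in the LAM samples, with LAM 3 highest and LAM 2 lowest. They parted after sciatic nerve injury. Saa1 had means of 3.27 CPM in SNA_Saline and 3.33 CPM in SNA_NAC, with every sample within the LAM range and above every Sham_Saline sample. Saa3 had means of 0.41 and 0.18 CPM there, with every sample below every LAM sample. A high Saa1 level was thus not particular to the spinal operations. Saa1 has a near-identical copy, Saa2, in the same cluster on chromosome 7, so its count is uncertain: whether the counting split shared reads is not given in the sources used here. The calls of Saa1 were lost with the lane block and in 9 of 18 alternatives in all, and those of Saa3 in 2 of 17.

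Spp1 encodes osteopontin, a secreted matrix and cytokine-like protein that large sensory neurons and macrophages make, and it was the most abundant of the 11 genes. It stood at 549, 498 and 575 CPM in LAM and at 266, 282 and 268 CPM in Sham_Saline. The sham samples lay within a narrow range at about the same distance below each LAM sample (log2 fold change -0.99, SE 0.14, edgeR adjusted p = 0.00928). The call was lost in 4 of 19 alternatives, among them those without Sham_Saline 3 (log2 fold change -0.98) and without LAM 3 (-0.94). Its means were 494 ± 106 CPM in DCA, 291 ± 44.9 in Sham_H2O2, 374 ± 34.3 in SNA_Saline and 345 ± 24.5 in SNA_NAC (SD, n = 3). The group means after the 2 spinal operations were thus the highest in the series, and every sample with nerve injury lay between the 2 controls.

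Sham_H2O2 and DCA share no sample with the 2 controls and also set a sham operation against a spinal one, though peroxide and the dorsal column injury differ between them too. In Sham_H2O2 against DCA, 27 genes passed (0.172% of the genes tested), 18 higher (0.114%) and 9 lower (0.0572%). Of the 11 genes, 8 passed there as well, all in the same direction: Atf3, Gpr151, Fgf3, Tmem88b, Igfbp3, Gm5152, Saa3 and Spp1, which is 72.7% of the 11 and 29.6% of the 27. The same sign with an unadjusted p under 0.05 was found for 10 of the 11, against 676 genes at that p in all (4.3%). Atf3 stood at 24.96, 39.6 and 28.2 CPM in DCA and 121, 96.4 and 79.5 CPM in Sham_H2O2 (log2 fold change 1.69, SE 0.18, edgeR adjusted p = 3.20e-04). Saa3 stood at 4.18, 1.54 and 1.93 CPM in DCA and 0, 0.045 and 0.16 CPM in Sham_H2O2 (log2 fold change -5.40, edgeR adjusted p = 0.00856). Saa1 had log2 fold changes of the same sign, -2.62 there with an adjusted p of 0.10, and Smim3 0.52 with an adjusted p of 0.38. Kcnk12 was the exception, with 0.87, 0.68 and 1.17 CPM in DCA and 0.52, 0.86 and 0.48 CPM in Sham_H2O2 (log2 fold change -0.44, edgeR adjusted p = 0.99).

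**Figure D3:**
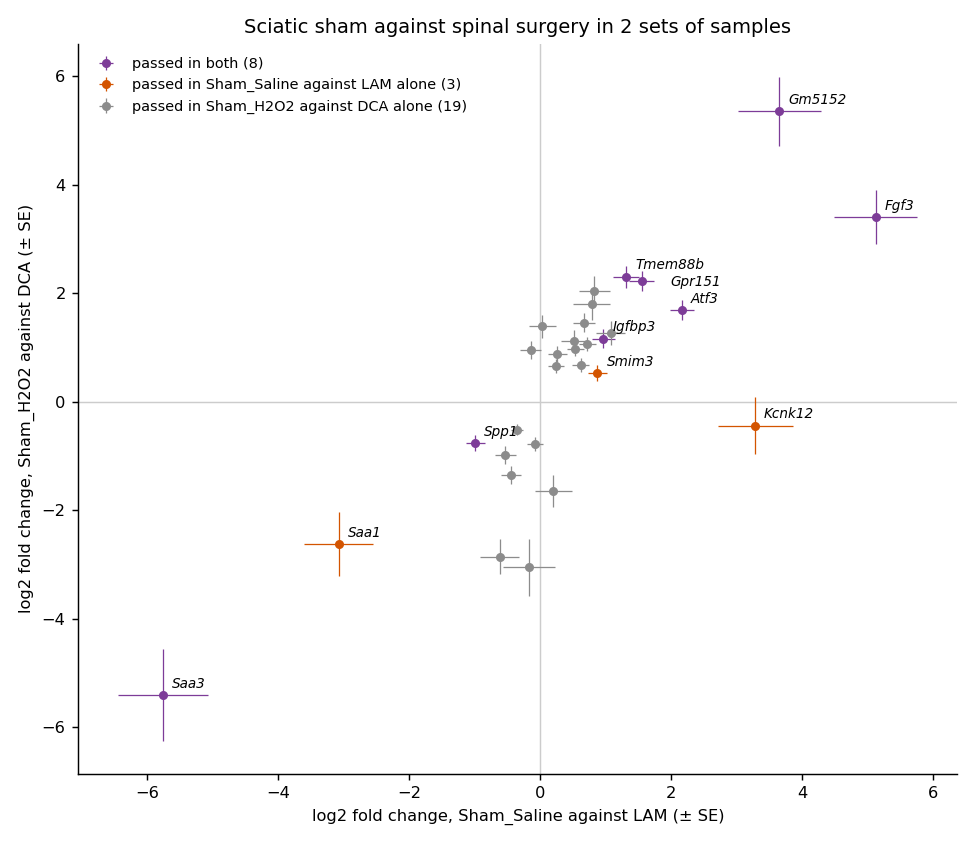
Log2 fold changes with SE of the genes that passed in either comparison, Sham_Saline against LAM (horizontal) and Sham_H2O2 against DCA (vertical), which share no samples. The 8 genes that passed in both (purple) have the same sign in both, and 25 of the 27 genes of the second comparison have the same sign in the first.

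Of the 27 genes of the second comparison, 25 had the same sign between the 2 controls and 19 had an unadjusted p under 0.05 there, against 30.3% of all genes. Over all genes, the 2 comparisons had the same sign in 5253 of 15730 genes (33.4%). The difference of the 2 differences gave 0 genes in edgeR and in DESeq2, with 3745 genes (23.8%) at an unadjusted p under 0.05 in edgeR, and 1708 genes passed without Sham_Saline 1. Of the genes that passed in the second comparison alone, Steap1 and Dpep1 had the opposite sign between the controls. Their log2 fold changes were -0.14 there against 0.95 in the second comparison, and 0.20 against -1.64. Rin1 (0.03 against 1.39), Txnip (-0.08 against -0.78) and Hif3a (-0.18 against -3.05) were near 0 between the controls. Sema6a and Csf1 are described by their values in both. Sema6a, which encodes a transmembrane semaphorin, stood at 14.4, 11.5 and 14.6 CPM in LAM and 24.4, 20.9 and 21.4 CPM in Sham_Saline, with an edgeR adjusted p of 0.0599 that just missed the threshold (log2 fold change 0.72; 1.07 in Sham_H2O2 against DCA, adjusted p = 0.00101). Csf1, the macrophage growth factor that injured sensory neurons release, stood at 13.4, 16.8 and 15.3 CPM in LAM and 20.6, 26.9 and 22.3 CPM in Sham_Saline. Its log2 fold change was 0.62 between the controls (edgeR adjusted p = 0.104; 0.24 with GC and length offsets) and 0.67 in the second comparison (adjusted p = 0.0494).

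**Figure D4:**
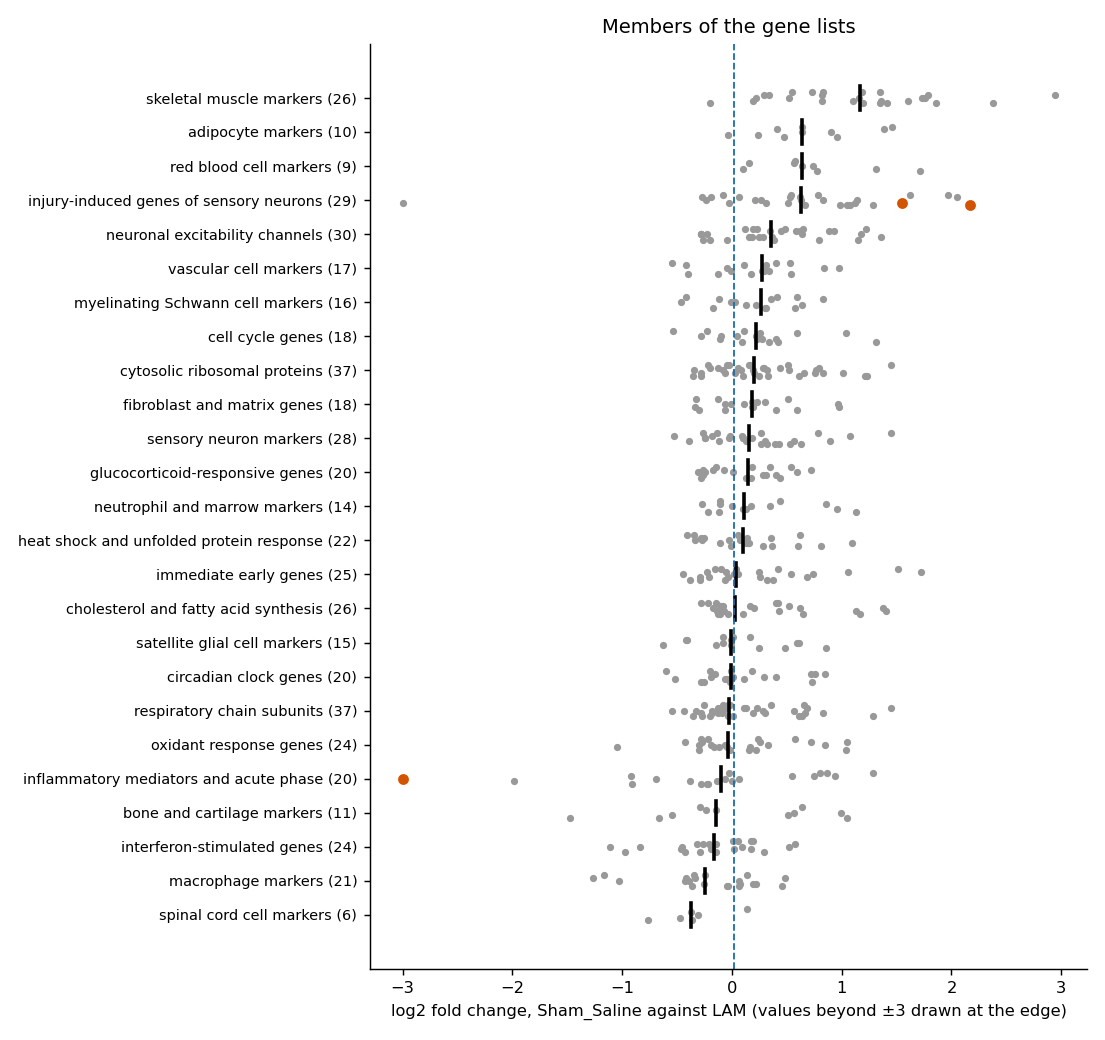
Log2 fold change of Sham_Saline over LAM for each tested member of 25 gene lists (points; orange, adjusted p under 0.05), with the list's median (black bar), the number tested in brackets and the median of all genes (dashed line). The injury-induced genes have a median of 0.63 and the macrophage markers one of -0.24, against 0.023 for all genes.

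Among 29 injury-induced genes of sensory neurons tested, a list that holds Atf3 and Gpr151, these 2 passed and were higher, 23 had a fold change above 0 and the median was 0.63, against a median of 0.023 over all genes, of which 8223 (52.3%) were above 0. Groups did not overlap in 17 members that were higher and 2 that were lower, against 16.4% and 14.2% of all genes. In edgeR 17 of the 29 had an unadjusted p under 0.05 (30.3% of all genes), and DESeq2 passed 11 (1141 of all 15730 genes). The median was 0.49 with offsets for GC share and length and 0.48 without Sham_Saline 2. Gal, the neuropeptide galanin, stood at 7.76, 9.43 and 7.65 CPM in LAM and 10.96, 20.8 and 20.9 CPM in Sham_Saline (log2 fold change 1.08, edgeR adjusted p = 0.104; 0.62 with the offsets). Gadd45a, a growth arrest and DNA damage gene, stood at 34.5, 29.1 and 31.5 CPM in LAM and 37.9, 48.9 and 50.4 CPM in Sham_Saline (log2 fold change 0.53, edgeR adjusted p = 0.104). Arg1, the arginase of axon growth and of macrophages, went the other way, at 3.62, 2.11 and 3.69 CPM in LAM and 0.19, 0.34 and 0.34 CPM in Sham_Saline (log2 fold change -3.42, edgeR adjusted p = 0.104). It was named after its values were seen. In Sham_H2O2 against DCA 7 of the same 29 genes passed, all higher: Atf3, Gpr151, Gadd45a, Csf1, Fst, Flrt3 and Bdnf. Of these, Bdnf, a neurotrophin, stood at 52.8, 52.7 and 47.7 CPM in LAM and 64.5, 59.5 and 59.6 CPM in Sham_Saline, a small difference (log2 fold change 0.26, edgeR adjusted p = 0.208; 0.52 with the offsets).

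The immediate early genes, which answer to neuronal activity and handling within minutes, had a median of 0.039. In edgeR 0 of 25 passed, with 7 at an unadjusted p under 0.05 (30.3% of all genes), and DESeq2 passed 2 (1141 of all 15730 genes). The glucocorticoid-responsive genes, which follow surgical stress, had a median of 0.15 (-0.15 with GC and length offsets), and the 2 groups overlapped in every one of them, where 30.6% of all genes did not overlap. In edgeR 0 of 20 passed, with 2 at an unadjusted p under 0.05 (30.3% of all genes), and DESeq2 passed 1 (1141 of all 15730 genes). In Sham_H2O2 against DCA the median of the same genes was -0.80, against 0.0027 for all genes. Of the 20, Hif3a passed there as lower (log2 fold change -3.05), as did 0.0572% of all genes.

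None of the macrophage markers passed. Of the 21, 13 had a fold change below 0 (52.3% of all genes were above 0), with a median of -0.24 (-0.29 with GC and length offsets). The other 8 were above 0, with C1qa at 0.48 and C1qc at 0.46 the highest (edgeR adjusted p = 0.276 and 0.362). Groups did not overlap in 3 of them, all lower in Sham_Saline, a share close to the 14.2% of all genes. Members that were higher without overlap numbered 0, against 16.4% of all genes. In edgeR 0 of the 21 passed, with 3 at an unadjusted p under 0.05 (30.3% of all genes), and DESeq2 passed 3 (1141 of all 15730 genes). In both cases the 3 were Ctss, Ccr2 and Fcgr1. Ctss, the lysosomal protease cathepsin S, stood at 27.4, 31.1 and 39.5 CPM in LAM and 15.0, 15.2 and 18.2 CPM in Sham_Saline (log2 fold change -1.03, SE 0.24, edgeR adjusted p = 0.104). Ccr2, the chemokine receptor that marks inflammatory monocytes, stood at 17.6, 18.9 and 21.1 CPM in LAM and 10.5, 6.95 and 8.21 CPM in Sham_Saline (log2 fold change -1.17, SE 0.28, edgeR adjusted p = 0.104). In both genes all LAM samples were above all Sham_Saline samples. Fcgr1, the high-affinity Fc receptor, stood at 2.48, 3.47 and 4.50 CPM in LAM and 1.33, 1.35 and 1.83 CPM in Sham_Saline (log2 fold change -1.26, edgeR adjusted p = 0.104). The general marker Lyz2 overlapped, at 115, 145 and 161 CPM in LAM and 108, 104 and 143 CPM in Sham_Saline (log2 fold change -0.25, edgeR adjusted p = 0.455). The summed level of the 21 markers was 284 to 388 CPM in LAM and 262 to 318 CPM in Sham_Saline.

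Genes with the smallest p on the lower side after Spp1 were described by the rule for named genes, and none passed. N4bp2l1 had a log2 fold change of -0.63 here and of -0.34 in Sham_H2O2 against DCA. The values were -0.68 and -0.55 for Mettl20, and -0.49 and 0.14 for Ephx4. All of these had an edgeR adjusted p of 0.104 here. Ccl6, a chemokine of myeloid cells, stood at 12.6, 13.7 and 16.8 CPM in LAM and 5.72, 7.24 and 8.28 CPM in Sham_Saline, a log2 fold change of -1.03 in both this comparison and Sham_H2O2 against DCA (edgeR adjusted p = 0.104 and 0.0954). Clec4a3 had a log2 fold change of -1.37 here and of 0.38 in Sham_H2O2 against DCA. Ms4a6d had -1.50 here and -1.26 there, and Wfdc17 -1.31 and -0.71. Clec4a3, Ms4a6d and Wfdc17 had edgeR adjusted p-values of 0.104 here, and groups did not overlap in any of them, as in 30.6% of all genes. In the second comparison Ctss had a log2 fold change of -0.22 and Ccr2 one of -0.19. The inflammatory mediators and acute phase genes were mixed: of 20 tested, Saa3 passed as lower, 7 were above 0 and the median was -0.10. The interleukin 1 receptor antagonist Il1rn, named after its values were seen, stood at 2.90, 1.68 and 3.06 CPM in LAM and 0.81, 0.55 and 0.54 CPM in Sham_Saline (log2 fold change -1.98, edgeR adjusted p = 0.104). Bcl3, a partner of NF-kappaB, had 2.38, 1.95 and 3.46 CPM in LAM and 4.43, 9.60 and 5.29 CPM in Sham_Saline, the opposite direction (log2 fold change 1.29, edgeR adjusted p = 0.104; 0.48 with GC and length offsets).

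On the higher side, genes near the threshold included Loxl4, a lysyl oxidase, at 1.76, 1.19 and 1.68 CPM in LAM and 5.48, 3.66 and 3.19 CPM in Sham_Saline (log2 fold change 1.43, edgeR adjusted p = 0.0561). Adam8, a membrane metalloprotease, stood at 4.24, 4.88 and 5.10 CPM in LAM and 9.82, 12.3 and 9.16 CPM in Sham_Saline (log2 fold change 1.12, edgeR adjusted p = 0.0721; 0.73 and adjusted p = 0.0163 with GC and length offsets). Etv5, an ETS transcription factor, had a log2 fold change of 0.62 (edgeR adjusted p = 0.101). In these genes the groups did not overlap, as in 30.6% of all genes, and none passed in Sham_H2O2 against DCA.

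Markers of tissues that lie near the ganglia were compared in the same libraries. The 26 skeletal muscle markers tested summed to 366, 635 and 99.9 CPM in LAM and 217, 2254 and 30.7 CPM in Sham_Saline, so the sum was highest in Sham_Saline 2 and lowest in Sham_Saline 3. Acta1, skeletal actin, was at 320 CPM in Sham_Saline 2 and at 1.29 to 42.4 CPM in the others, and its fold change is therefore that of 1 library (log2 fold change 2.38, SE 1.25, edgeR adjusted p = 0.199). The list's median was 1.17 with that library and -1.32 without it. In edgeR 0 of 26 markers passed, with 1 at an unadjusted p under 0.05 (30.3% of all genes), and DESeq2 passed 0. The red blood cell markers summed to 197, 480 and 483 CPM in LAM and 292, 829 and 894 CPM in Sham_Saline. Their fold changes were above 0 in 9 of 9 (52.3% of all genes), with a median of 0.64. Passing were 0 in edgeR and in DESeq2, with 3 at an unadjusted edgeR p under 0.05 (30.3% of all genes). In Sham_H2O2 against DCA the median of the same markers was -0.71. The adipocyte markers summed to 42.7 to 80.4 CPM in LAM and 66.6 to 117 CPM in Sham_Saline, with 9 of 10 above 0, and bone and cartilage markers to 44.9 to 48.6 and 42.2 to 49.2 CPM. Spinal cord markers were low in both controls, with 6 of 16 among the genes tested and sums of 40.0 to 56.7 CPM in LAM and 25.1 to 40.5 CPM in Sham_Saline. The part of these tissues in the 11 genes was not tested; without Sham_Saline 2, the highest in muscle RNA, Atf3 (log2 fold change 2.04), Gpr151, Fgf3, Tmem88b, Saa3 and Spp1 still passed, while Igfbp3, Smim3, Saa1, Gm5152 and Kcnk12 did not (adjusted p of 0.146 to 0.294).

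The medians of the neuronal and Schwann cell lists were above 0, and with offsets for GC share and length they were close to 0. The 30 excitability channels had a median of 0.35, which became -0.08 with the offsets. In edgeR 0 of 30 passed, with 12 at an unadjusted p under 0.05 (30.3% of all genes), and DESeq2 passed 2 (1141 of all 15730 genes). Kcnh2, a potassium channel, had values of 17.4, 23.6 and 22.3 CPM in LAM and 33.7, 74.6 and 32.3 CPM in Sham_Saline (log2 fold change 1.15, edgeR adjusted p = 0.104; 0.33 with the offsets). The median of the 28 sensory neuron markers was 0.16 and became -0.01, and that of 16 myelinating Schwann cell markers was 0.26 and became 0.00. Pou4f1, a transcription factor of sensory neurons, was lower in each Sham_Saline sample, at 294, 237 and 256 CPM in LAM and 193, 164 and 188 CPM in Sham_Saline (log2 fold change -0.53 and -0.61 with the offsets; edgeR adjusted p = 0.104). The log2 fold change of Atf3 with the same offsets was 1.98.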

How the data were processed

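RNA of pooled mouse dorsal root ganglia was sequenced with a stranded mRNA kit on HiSeq 2000, single end, 6 libraries to a lane, per the labels' protocols. The authors deposited raw read counts per gene for 15730 genes, and FPKM values for the same and other features. Per the submitters' processing notes the build was mm10 and the tools named include TopHat2 2.0.12, Bowtie2 2.2.3, SAMtools 0.1.19 and HTSeq 0.6.0. The use of strand in counting is not given in the sources used here, so overlapping antisense genes are uncertain. The lowest mean count in the table is 10.1, so low genes are not in it. Column names gave each sample, and 0 per-sample columns were left unused.

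The quasi-likelihood test of edgeR 4.0.16 (R 4.3.3; TMM, filterByExpr, glmQLFit and glmQLFTest) was run on the counts of all 18 samples, with group as the only factor, and the threshold was an adjusted p of 0.05 (Benjamini-Hochberg over all 15730 genes, none of which the filter removed). To obtain an SE, the size of each log2 fold change was divided by the root of its F value; the prior count for log2 CPM was 2. Biological variation between samples, as edgeR's common coefficient, came to 17.4%. With 3 samples against 3, the smallest p that an exact permutation test of one gene allows is 0.10, so the model across genes was used. No pair of replicates agreed within sampling noise: the lowest chi-square per degree of freedom was 3.96.

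Replicate numbers equal lane numbers in the labels. Deviations from the group means of same-numbered Sham_Saline and LAM samples had correlations across genes of 0.244, 0.422 and 0.267, so the lane block is printed where it changes a call. For Sham_H2O2 and DCA they were -0.119, -0.367 and -0.449. The reads carry no molecular identifiers, so intervals cover counting error only.

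Named genes were those that passed, the 12 smallest p-values in each direction at a mean count of at least 50, up to 4 members per list by p at the same minimum, and the 2 most abundant markers per cell type; some genes that met this rule are not reported here, exceptions are named as such, and genes of the second comparison were taken from its calls. Members, lists, tests and rules were chosen with earlier results of these data known. Alternatives were DESeq2 1.42.0, no filter, at least 10 counts in each sample, the lane block, limma 3.58.1 on log2 of the FPKM with pseudocounts of 1 and 0.1, voom with sample weights, offsets for GC share and length (splines with 5 degrees of freedom, 15648 genes with a value, longest GENCODE M21 transcript), these with the block, thinning to 6472476 counts, only the 2 groups, a threshold of 0.10 and leaving out each sample. The steps were tested on simulated data. Motifs were searched in RefSeq sequences of GRCm38.p6.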

Additional observations from a re-analysis of the deposited data

How the results depend on the processing

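The count of 11 genes between the controls became 1141 with DESeq2, 4 with at least 10 counts in every sample, 6 with the replicate block (lane), 5 on log2(FPKM + 1), 5611 with voom sample weights, 18 with GC and length offsets, 21 with these and the replicate block, 4 after thinning, and 1 from the 2 groups alone, with or without the offsets. Leaving out 1 sample gave 4 to 5009, the highest without Sham_Saline 1 and the next 7 without LAM 1. The 3 list members called became 47 with DESeq2, 194 with voom weights and 1 from the 2 groups alone, with or without the offsets; leaving out 1 sample gave 3 to 159. The 27 genes of Sham_H2O2 against DCA became 78 with DESeq2, 1887 with voom weights, 89 with the offsets, 85 with the offsets and the block, 8 from its groups alone and 51 at an adjusted p under 0.10, and 13 to 27 without 1 sample; the replicate block gave 24. The difference of the differences gave 5376 genes with voom weights, 0 to 1708 without 1 sample and 0 in all other alternatives, the block included. Features outside the count table gave 0 of 193 in limma on log2(FPKM + 1), with 29 at an unadjusted p under 0.05, and 0 to 1 without 1 sample. Some of these features, such as Flrt3, Slc35f4 and Pigb, kept a constant ratio to a count-table gene of the same symbol. Not all of them are thus separate data. Acta1 reversed without Sham_Saline 2 (log2 fold change -1.24) and with voom weights (-1.39), and its values without 1 sample ran from -1.24 to 3.37. The cause of these shifts was not tested. Smim3, Saa1, Gm5152, Kcnk12 and Igfbp3 lost their calls with the block. Depth limits Fgf3, Gm5152, Kcnk12, Saa1 and Saa3, which rest on few counts in one group.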

Other observations

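The 26 genes of cholesterol and fatty acid synthesis were split: 13 had a fold change above 0 and the median was 0.03. Groups did not overlap in 8 that were higher in Sham_Saline and 1 that was lower, against 16.4% and 14.2% of all genes. In edgeR 0 of 26 passed, with 9 at an unadjusted p under 0.05 (30.3% of all genes), and DESeq2 passed 5 (1141 of all 15730 genes). Fasn, fatty acid synthase, stood at 60.2, 62.1 and 72.2 CPM in LAM and 122, 194 and 110 CPM in Sham_Saline (log2 fold change 1.13, SE 0.25, edgeR adjusted p = 0.104), and Srebf1, the transcription factor of fatty acid synthesis, at 11.3, 15.5 and 15.8 CPM and 22.2, 46.1 and 28.0 CPM (log2 fold change 1.17, edgeR adjusted p = 0.104). Mvk, mevalonate kinase, had a log2 fold change of 1.38. With GC and length offsets these values were 0.44 for Fasn, 0.50 for Srebf1 and 0.81 for Mvk, and in Sham_H2O2 against DCA that of Fasn was 0.06 and that of Mvk -0.44.

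Among genes of the unfolded protein response, Ddit3, the stress transcription factor CHOP, stood at 14.2, 16.7 and 17.8 CPM in LAM and 20.8, 37.3 and 27.7 CPM in Sham_Saline (log2 fold change 0.81, edgeR adjusted p = 0.104; 0.95 with the offsets), and Chac1, one of its targets, at 2.48, 2.01 and 2.69 CPM and 3.05, 7.58 and 4.68 CPM (log2 fold change 1.09, edgeR adjusted p = 0.104; 0.50 with the offsets). Over the 22 genes of the list the median was 0.10, and groups did not overlap in 5 that were higher and 4 that were lower, against 16.4% and 14.2% of all genes. Asns, asparagine synthetase, was among the lower, at 250.1, 244 and 246 CPM in LAM and a log2 fold change of -0.27 (edgeR adjusted p = 0.104). Slc7a11, the cystine transporter, was lower in each Sham_Saline sample, at 9.21, 8.62 and 13.7 CPM in LAM and 7.24, 2.57 and 5.70 CPM in Sham_Saline (log2 fold change -1.04, edgeR adjusted p = 0.112). The clock gene Nr1d2 was lower too, at 106, 104 and 91.3 CPM and 82.8, 55.0 and 60.8 CPM (log2 fold change -0.60, edgeR adjusted p = 0.104), while the median of 20 clock genes was -0.01.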
